A study of Mus musculus with 2 samples.

Results

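The genes described here are 9 protein-coding genes of mouse chromosome 16, namely Dgcr2, Zdhhc8, Ranbp1, Trmt2a, Dgcr8, Tango2, Arvcf, Txnrd2 and Hira, out of 46095 genes in the count table. They belong to the block of chromosome 16 whose human counterpart is deleted in DiGeorge syndrome. The group was chosen by the counts of Tango2 and Dgcr2, which were already known to differ between the libraries, so its values are given as a description. The compared samples were C3H10 cells, a mouse embryonic mesenchymal line that forms fat cells after hormonal induction. In the control group the cells were transfected with a negative control ASO, and in the MALAT1-knockdown group with an ASO against MALAT1, each at 100 nM. ASOs are short antisense oligonucleotides through which a matching RNA is cleaved. RNA was taken at day 6 of differentiation in both groups, with 1 library per group. The labels give the strain as C57BL/6 for both, although the line is named for the C3H mouse. The sources used here do not name the anti-MALAT1 ASO behind the sequenced library. The comparison addresses which transcripts differ when MALAT1 is depleted in cells induced to form fat.

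The loss of this block in humans affects heart, thymus, palate and brain, and the genes described here have different functions. Several of them serve processes that most cells use. Dgcr8 binds primary microRNA transcripts for the nuclease Drosha, and Ranbp1 assists the Ran GTPase in nuclear transport. Hira deposits histones outside of replication, and Trmt2a methylates uridine in tRNA. Txnrd2 is the mitochondrial thioredoxin reductase, and Zdhhc8 attaches palmitate to proteins. Arvcf is a catenin that binds cadherins at cell contacts, and Dgcr2 is a membrane protein with an LDL receptor repeat. Tango2 is named for transport and Golgi organization, and its loss in humans causes metabolic crises.

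The control library held 58147539 counts and the MALAT1-knockdown library 61653549. Counts were scaled with edgeR's TMM factors, and the log2 fold change, or log2 ratio, is knockdown over control with a prior count of 0.5. With 1 library per group no difference has a replicate check, no p-value is given, and the 95% intervals cover counting error only. Malat1 itself had 170402 counts with the control ASO and 45396 after knockdown, with a log2 ratio of -2.01. The labelled cell type was checked against 5 markers of fat cells and 5 of fibroblasts, none of which was at 0. The fat cell markers (Fabp4, Adipoq, Lpl, Plin1 and Cidec) were lower in knockdown cells in 5 of 5 cases, with log2 fold changes from -1.37 to -1.22, and their summed level went from 4924 to 1948 CPM (the count relative to the TMM-scaled library total). The fibroblast markers (Col1a1, Col1a2, Pdgfra, Thy1 and Fn1) were higher in 5 of 5 cases, with log2 fold changes from 0.03 to 0.49, and their summed level went from 12684 to 13837 CPM. In bulk RNA, fewer cells of a type and less RNA per cell cannot be told apart. The part of this shift in the values of the DiGeorge-region genes was not tested.

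Tango2 and Dgcr2 were higher in MALAT1-knockdown cells than in control cells. Tango2 had 13 counts in the control library and 223 in the knockdown library, which was 0.225 and 3.59 CPM. The ratio was 15.9 (95% interval 9.13 to 30.4), a log2 fold change of 3.94. Tango2 thus moved from near the floor of detection to a low level. Dgcr2 had 53 counts in the control library and 395 in the knockdown library, or 0.918 and 6.36 CPM. Its ratio was 6.92 (95% interval 5.19 to 9.40), a log2 fold change of 2.78. For both genes the exact Poisson intervals of the counts did not overlap between the libraries, which is a description, since these counts chose the group. Among the 12139 genes with a mean of at least 100 counts, 2 had a log2 fold change as high as that of Tango2, itself included, and 4 one as high as that of Dgcr2.

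Arvcf was the other gene of the group past a log2 fold change of 1, on few counts. It had 2 counts in the control library and 18 in the knockdown library, a ratio of 8.36 with a 95% interval from 2.00 to 74.3. It reached the minimum of 10 summed counts only through the knockdown library.

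Txnrd2 was the gene of the group with the most counts in control cells. It had 125 counts there and 74 after knockdown. Its log2 ratio was -0.86 (95% interval -1.30 to -0.44), and it was the only one of the 7 genes with enough counts whose interval lay below 0. Dgcr8 had 25 counts with the control ASO and 27 after knockdown, with a log2 ratio of 0.00 and a 95% interval from -0.84 to 0.85. Hira had 12 counts with the control ASO and 19 after knockdown, with a log2 fold change of 0.54 (95% interval -0.56 to 1.73). Neither difference was detectable at these counts.

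The remaining genes were at or near the floor. Ranbp1 had 4 counts with the control ASO and 7 after knockdown, with a log2 ratio whose 95% interval spanned -1.28 to 2.92. Zdhhc8 had 0 counts in control cells, where the floor of 3 counts is 0.0520 CPM, and 4 in knockdown cells. Trmt2a had 2 counts with the control ASO and 0 after knockdown, where the floor is 0.0483 CPM, so no fold is given. Zdhhc8 and Trmt2a stayed under 10 summed counts and were left out of fold change counts.

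**Figure D1:**
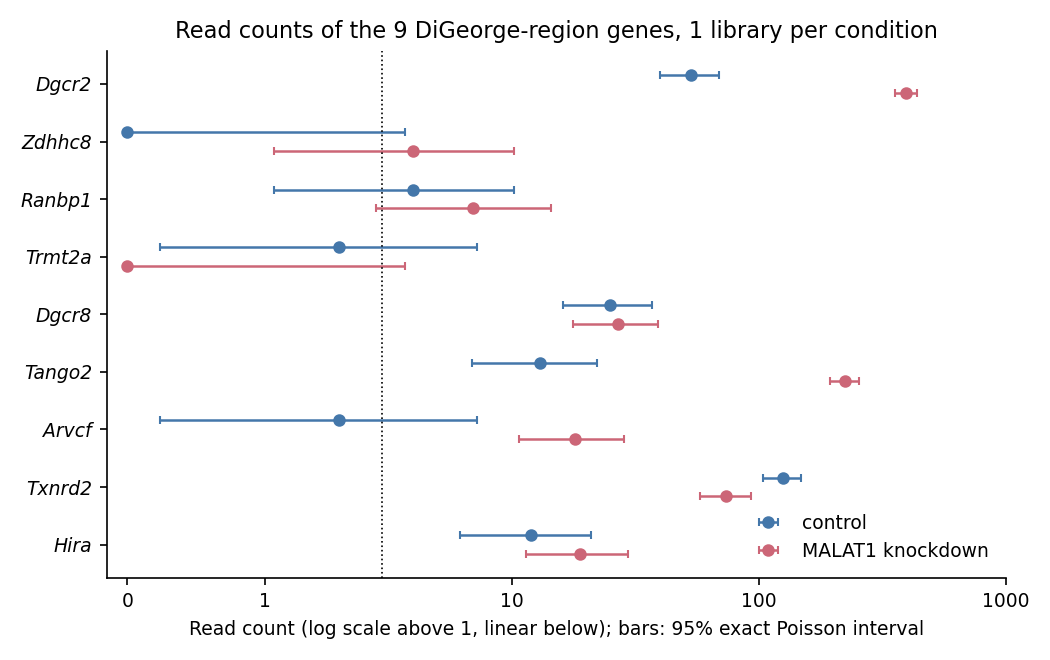
Read counts of the 9 genes in the control library and the MALAT1-knockdown library, in chromosomal order from Dgcr2 to Hira. Points are counts (x axis, log scale above 1), bars are exact 95% Poisson intervals, and the dotted line marks the floor of 3 counts. Tango2 (13 and 223 counts) and Dgcr2 (53 and 395 counts) have intervals that do not overlap, and so do Txnrd2 (125 and 74) and Arvcf (2 and 18). Those of the other 5 genes overlap. The share of all genes whose intervals do not overlap was not computed, so nothing is read from this.

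Tango2 and Dgcr2 held most of the group's counts in the knockdown library, whereas Txnrd2 held most of them in the control library. Together the 9 genes had 236 counts with the control ASO and 767 after knockdown, which was 0.000406% and 0.00124% of the libraries. Tango2 and Dgcr2 accounted for 66 and 618 of these counts. The other 7 genes had 170 counts with the control ASO and 149 after knockdown, with a summed log2 fold change of -0.30 (95% interval -0.62 to 0.03). That sum was carried by Txnrd2, and without it the remaining 6 genes had 45 and 75 counts, a log2 ratio of 0.62 (95% interval 0.08 to 1.197). Arvcf alone held 2 and 18 of these counts and passed the count minimum only through the knockdown library. No joint rise of the 6 genes is read from their sum. Of the 7 genes with at least 10 summed counts, 3 were higher by a log2 value of 1 or more, where 3.91% of all 17356 such genes did, and 0 were lower by as much, where 6.02% did. Among genes with a mean under 250 counts, the range of these 7, the shares were 10.3% upward and 14.6% downward. The members were picked on this contrast, so nothing is read from the difference. The median log2 fold change was 0.64 over the 7 genes and 0.00 over all genes with enough counts.

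**Figure D2:**
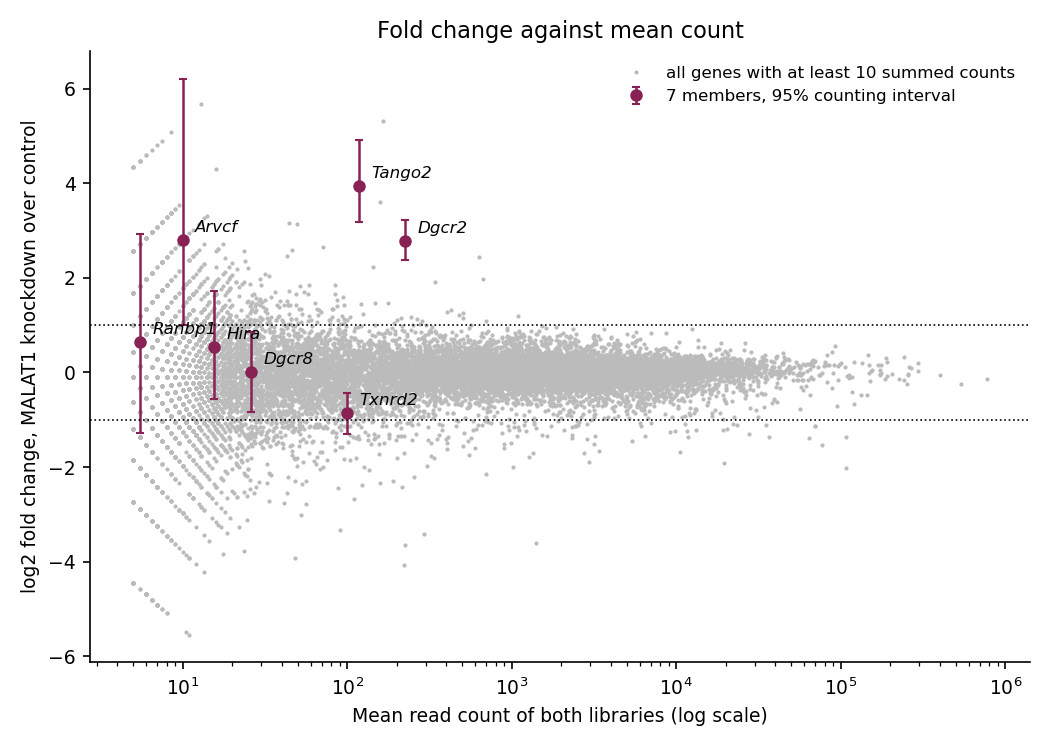
Log2 fold change (knockdown over control, y axis) against the mean count of both libraries (x axis, log scale) for the 17356 genes with at least 10 summed counts, in grey, and for 7 of the 9 genes with 95% counting intervals. Dotted lines mark a log2 fold change of 1 in either direction. Tango2 at 3.94 and Dgcr2 at 2.78 lie above nearly all genes of like mean count, while Dgcr8, Hira and Ranbp1 lie within the wide scatter of genes with few counts.

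By a rule of nearest log2 fold change among genes with a mean of at least 100 counts, the genes most like Tango2 were 9930111J21Rik2 on chromosome 11, with 22 counts with the control ASO and 295 after knockdown, Dgcr2, and Snrnp40 on chromosome 4, with 7 and 322 counts. Those nearest to Dgcr2 were Eif5a on chromosome 11, with 185 counts with the control ASO and 1081 after knockdown, Gm21685 on chromosome 14, with 47 and 239 counts, and Wfdc3 on chromosome 2, with 256 and 1078 counts. With 2 libraries this likeness rests on a single ratio per gene. The closest match to Tango2 still differed from it by 0.33 on the log2 scale.

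The level of the group was low in both libraries. Levels between genes were compared as CPM per kilobase of the longest GENCODE M21 transcript, averaged over the libraries. The level per kilobase was highest for Dgcr2 at 0.638 and Txnrd2 at 0.584, followed by Tango2 at 0.500. It was 0.1004 for Dgcr8, 0.0839 for Ranbp1, 0.0609 for Hira and 0.0345 for Arvcf. The lowest were Zdhhc8 at 0.00661 and Trmt2a at 0.00492. The median over the 15653 genes with enough counts and a transcript length was 6.06. The highest of the group, Dgcr2, lay at the 21.5th percentile of these genes.

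The order within the group differed between the libraries. In control cells Txnrd2 stood first at 0.754 CPM per kilobase and Dgcr2 second at 0.161, whereas Tango2 was at 0.0591. In knockdown cells Dgcr2 stood first at 1.11 and Tango2 second at 0.941, followed by Txnrd2 at 0.414. The levels of Dgcr8 (0.1003 and 0.1006), Ranbp1 (0.0639 and 0.104) and Hira (0.0493 and 0.0725) lie on 4 to 27 counts. Nothing is read from the order of Dgcr8, Ranbp1 and Hira among themselves.

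Partners of the same pathways were well covered in the same libraries. Drosha, the nuclease that Dgcr8 serves, had 4381 counts with the control ASO and 4662 after knockdown. Dicer1, which cuts the hairpins further, had 5378 and 5935. None of the 15 other microRNA pathway genes of the list had a level per kilobase as low as that of Dgcr8, and their median was 139 times higher. All 15 lay within a log2 fold change of 1, from -0.47 for Ago4 to 0.14 for Tnrc6a.

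The other pathways gave a like picture. Ran, the GTPase that Ranbp1 assists, had 10262 counts with the control ASO and 11171 after knockdown, against 4 and 7 for Ranbp1. The median level per kilobase of the 9 other Ran cycle genes was 324 times that of Ranbp1, and their log2 fold changes ran from -0.06 for Ranbp2 to 0.35 for Rangap1. Txnrd1, the cytosolic thioredoxin reductase, had 5731 and 7341 counts (log2 ratio 0.25), in contrast to the lower Txnrd2. In the thioredoxin list of 13 other genes, 0 passed a log2 fold change of 1, and Txnrd3 was lowest at -0.62. For Txn2, the mitochondrial thioredoxin that Txnrd2 reduces, the counts were 7849 and 7211 (log2 ratio -0.23).

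Among histone chaperones, the partners of Hira were also well covered. Ubn1, a subunit of the Hira complex, had 10127 counts with the control ASO and 12030 after knockdown, and Cabin1, another subunit, had 6585 and 7023. Of the 11 other genes of this list 0 passed a log2 fold change of 1, and among those with a mean of at least 100 counts the values ran from -0.13 for Ubn2 to 0.63 for Chaf1b. Daxx, a further histone chaperone, was as thinly covered as Hira, with 8 and 14 counts. Trmt2b, the mitochondrial relative of Trmt2a, had 1886 and 1847 counts. The 14 other tRNA methylation genes all lay above Trmt2a in level, with log2 fold changes from -0.24 for Trmt10c to 0.33 for Trmt12.

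The families of Arvcf, Zdhhc8 and Dgcr2 held some other genes at such levels. Ctnnd1, the closest widely used relative of Arvcf, had 21057 counts with the control ASO and 27677 after knockdown. Of 11 genes listed with Arvcf, Ctnnd2 and Pkp3 had a level per kilobase at or below it, and 0 of the 9 with enough counts passed a log2 fold change of 1, with values from -0.02 for Jup to 0.36 for Cdh2 where the mean was at least 100 counts. Of 23 other DHHC palmitoyltransferases, 4 had a level per kilobase at or below that of Zdhhc8 (Zdhhc11, Zdhhc15, Zdhhc19 and Zdhhc22). In this family Zdhhc14 was lower, with 68 and 35 counts, and Zdhhc23 higher, with 9 and 23 counts, both past a log2 fold change of 1. Zdhhc5, a close relative of Zdhhc8, had 8629 and 9454 counts. Of the 10 other genes with LDL receptor repeats, Sorl1 lay below Dgcr2 in level per kilobase, and log2 fold changes ran from -0.23 for Vldlr to 0.86 for Lrp8 where the mean was at least 100 counts.

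**Figure D3:**
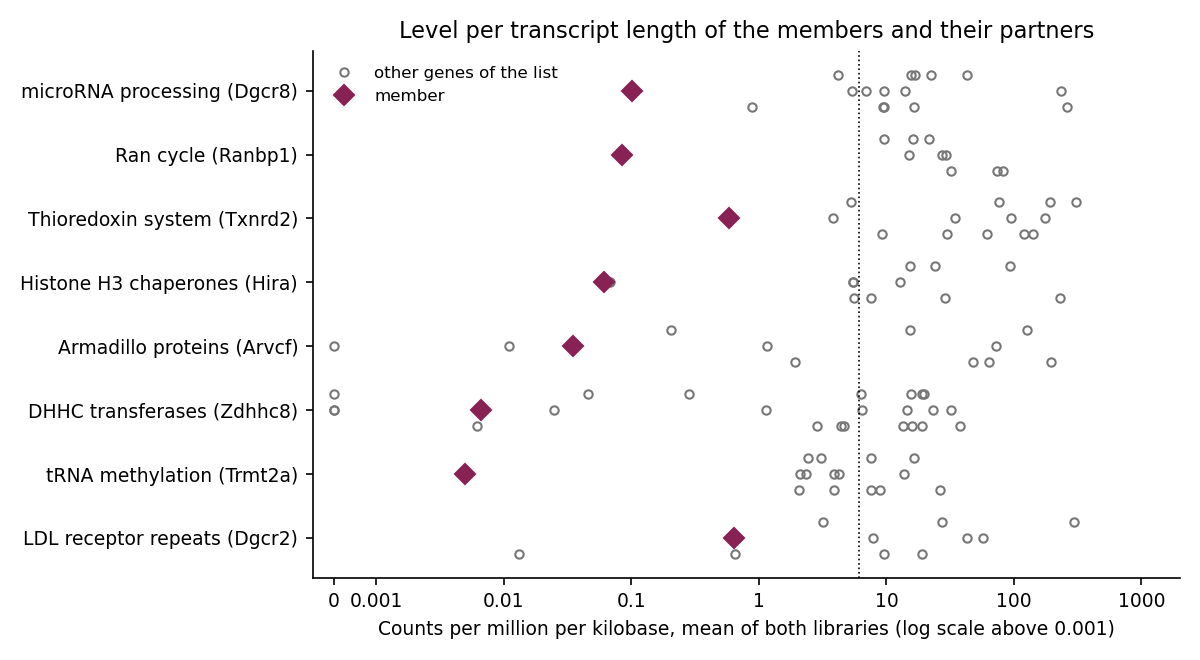
CPM per kilobase of transcript, averaged over both libraries (x axis, log scale above 0.001), for each of 8 genes of the group (diamonds) and the other genes of its pathway or family (circles). The dotted line is the median of all genes with enough counts, 6.06. All 8 diamonds lie left of that line, and in 4 of the 8 rows another gene lies about as low or lower: Daxx just beside Hira, and genes at or below Arvcf, Zdhhc8 and Dgcr2.

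The low counts extended along the chromosome. In the RefSeq annotation of GRCm38.p6, the build that the submitters' processing notes name without a patch, the genes run over 1.13 megabases, from Dgcr2 at 17840355 to 17891728 to Hira at 18876750 to 18970309. Zdhhc8, Ranbp1, Trmt2a, Dgcr8, Tango2 and Arvcf lie side by side between 18220748 and 18407076, and Txnrd2 lies at 18426417 to 18479073. From Dgcr2 to Hira the table held 29 protein-coding genes, with a median of the mean counts of 9. In this stretch 9 genes were at 0 in both libraries. The median was 168 over all 21316 protein-coding genes of the table, 143 over the 20 before Dgcr2 and 1 over the 20 after Hira.

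On the side of Dgcr2, genes with many and with few counts alternated. The nearest gene on that side with a mean of at least 1000 counts was Med15, a subunit of the Mediator complex, with 4551 counts with the control ASO and 5007 after knockdown. The 3 coding genes between Med15 and Dgcr2 had few counts, among them Klhl22 with 10 and 8 and Scarf2 with 60 and 63. On the side of Hira, the next gene with a mean of at least 1000 counts was Klhl24, which had 5270 and 4794 counts and lay 1.13 megabases on, past 11 coding genes, 8 of them olfactory receptor genes at 0 in both libraries. Within the stretch, Ufd1l, which acts in the removal of ubiquitin-marked proteins, had 646 counts with the control ASO and 705 after knockdown, and Sept5, a septin, had 436 and 684.

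**Figure D4:**
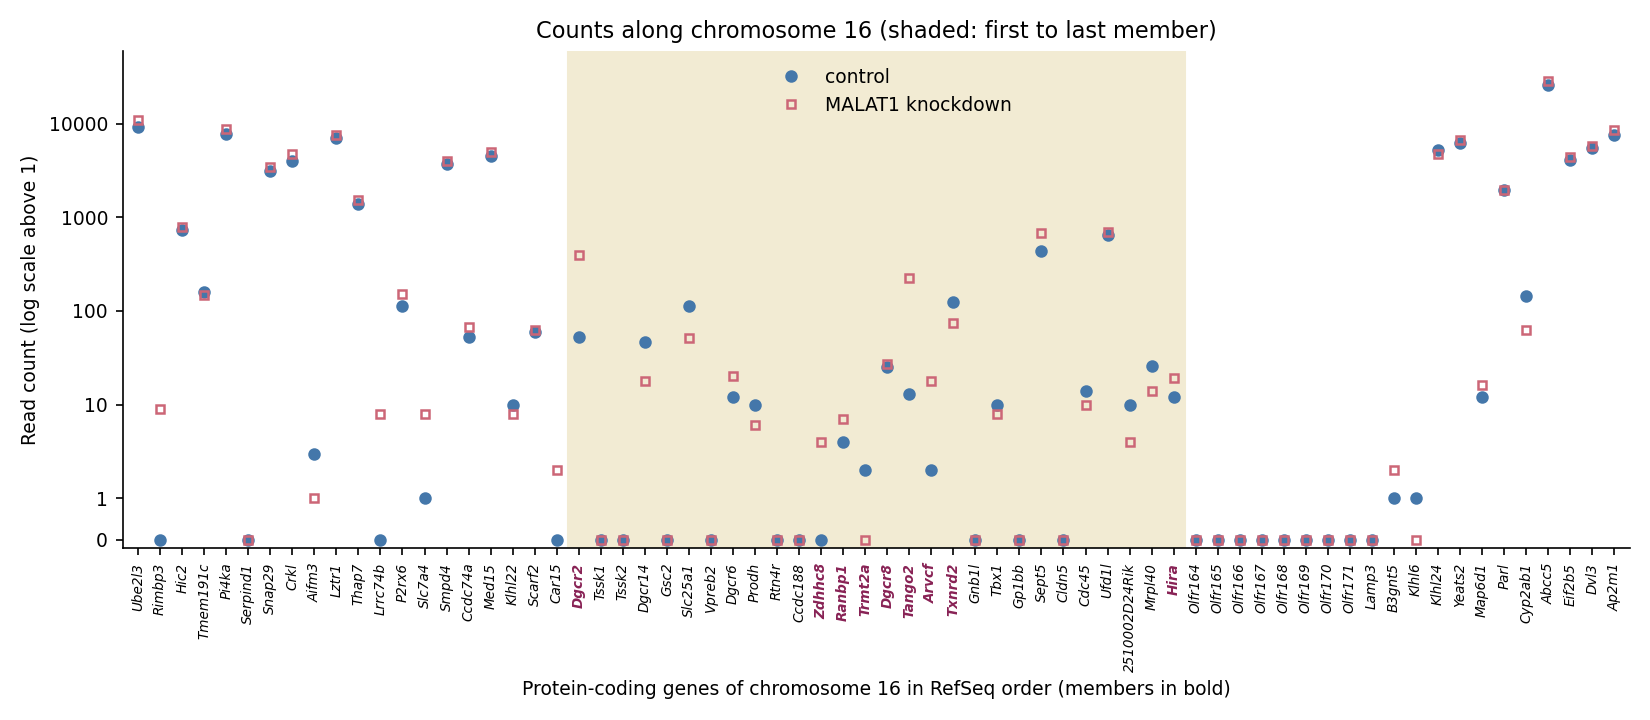
Read counts (y axis, log scale above 1) of the labelled protein-coding genes of chromosome 16 in RefSeq order, with the stretch from Dgcr2 to Hira shaded and 20 coding genes on each side. Filled circles are the control library and open squares the MALAT1-knockdown library, and the 9 genes are in bold. Counts vary widely up to Med15 (4551 and 5007), stay mostly under 150 through the shaded stretch apart from Sept5, Ufd1l and the knockdown values of Dgcr2 and Tango2, and return at Klhl24 (5270 and 4794).

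The other genes of the stretch moved in both directions. The window from 10 genes before Dgcr2 to 10 genes after Hira held 53 genes outside the group, of all gene types, and 15 of them had at least 10 summed counts. Of these, 0 were higher and 3 lower by a log2 value of 1 or more, beside 3.91% and 6.02% of all genes with enough counts and 10.3% and 14.6% of those with a mean under 250 counts, so nothing particular to these neighbours is read from the counts. Sept5, with 436 and 684 counts, was higher below that size, with a log2 ratio of 0.54 (95% interval 0.37 to 0.72). Dgcr14, linked to splicing and placed next to the testis kinase genes beside Dgcr2, had 47 counts with the control ASO and 18 after knockdown, with a log2 ratio of -1.46 (95% interval -2.36 to -0.68). Slc25a1, the mitochondrial citrate carrier, had 112 and 51 counts, with a log2 fold change of -1.23 (95% interval -1.75 to -0.75). For 2510002D24Rik the counts were 10 and 4, and the interval, from -3.56 to 0.37, included 0. Tbx1, the transcription factor best known from the heart defects of the deletion, had 10 and 8 counts. The median log2 fold change over the 15 genes was -0.41, and over the 7 genes of the group it was 0.64. Both medians fell on genes with few counts, and the members were picked on this contrast. Nothing is read from the difference between these medians. Slc25a1 is a gene of fat synthesis, and the fat cell markers were lower in the same library, the part of which in these values was not tested.

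Members of the group that face each other across a shared start region were compared next. Tango2 on the minus strand and Arvcf on the plus strand start 83 bases apart, and both were higher in knockdown cells. Tango2 is among the genes whose values chose the group, and Arvcf had only 2 and 18 counts (ratio 8.36, 95% interval 2.00 to 74.3), so this is a description. The 78 bases between their GENCODE M21 exons, which extend slightly past the RefSeq start of Tango2, are shown because they separate the starts of both genes. It is printed on the strand of Tango2, 5′ to 3′, with matches to CCAAT on either strand in capitals (RefSeq, GRCm38.p6, chr16:18348104-18348181).

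Tango2-Arvcf: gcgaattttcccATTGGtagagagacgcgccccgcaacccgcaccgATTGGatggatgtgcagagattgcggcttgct

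The other facing pairs were not alike. Ranbp1 and Trmt2a, 152 bases apart, had 4 and 7 counts and 2 and 0 counts. Mrpl40, a protein of the mitochondrial ribosome, and Hira start 112 bases apart, and their log2 fold changes were -0.97 and 0.54, with 26 and 14 counts for Mrpl40. Cdc45, a replication factor, and Ufd1l overlap at their starts. Cdc45 had 14 and 10 counts (log2 ratio -0.57), and Ufd1l 646 and 705 (log2 ratio 0.02).

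The 250 bases before the RefSeq start of Dgcr2, the other gene that was higher in knockdown cells, are shown for comparison. They lie on the minus strand (RefSeq, GRCm38.p6, chr16:17891729-17891978) in an intron of a longer GENCODE M21 Dgcr2 transcript, and capitals mark matches to CCAAT or GGGCGG on either strand.

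Dgcr2: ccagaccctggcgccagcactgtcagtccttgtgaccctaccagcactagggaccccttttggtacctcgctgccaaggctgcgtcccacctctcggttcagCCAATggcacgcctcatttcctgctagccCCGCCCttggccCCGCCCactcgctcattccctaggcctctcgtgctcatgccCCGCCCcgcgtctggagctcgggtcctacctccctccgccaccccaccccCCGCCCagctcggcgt

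The promoters of the group held more CG dinucleotides than the median promoter. For each gene the window from 250 bases before to 50 after a transcription start was searched on both strands, and all 9 genes had one. The start was the most upstream one in the promoter set used. For Dgcr8, Trmt2a and Zdhhc8 it lay inside the RefSeq bounds of the gene, downstream of their outer edge. The windows held from 16 CG dinucleotides in Arvcf to 43 in Dgcr8, with a median of 31, whereas the median over 27025 genes was 7. The GC content was from 62.7% to 74.3% in the 9 windows, whereas the median over all windows was 52.7%, so motif shares are set beside unlike windows. The GC box core GGGCGG was in all 9 windows and in 35.9% of all windows. CCAAT was in 6 of 9 and in 38.0% of all, namely in the windows of Dgcr2, Tango2, Dgcr8, Ranbp1, Arvcf and Trmt2a. The windows of Tango2 and Arvcf overlap, and so do those of Ranbp1 and Trmt2a, so these matches are partly the same letters. The TATA box core TATAAA, the E-box CACGTG and the ETS core CCGGAAGT were in none of the 9, against 14.2%, 7.24% and 3.99% of all windows, shares so small that their absence from 9 windows says little. A match is a description of letters and not a bound site.

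Genes with such promoters were mostly well covered in these libraries. Of 8763 genes in the table with at least 16 CG dinucleotides in the window, the median of the mean counts was 1379, and 30.5% had a mean under 250 counts, as all 9 genes of the group had. A mean under 30 counts was found for 21.6% of them and for 6 of the 9 genes, Dgcr8, Ranbp1, Arvcf, Trmt2a, Zdhhc8 and Hira. The bounds of 250 and 30 counts were chosen with the counts of the members known, so nothing is read from the difference in shares.

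Reads that fit more than 1 gene can be counted in different ways, and the counting rule is not given in the sources used here. In GENCODE M21, 44.7% of the exonic bases of Hira are shared with Gm28539 on the same strand, 26.5% of those of Dgcr2 with Gm20518, and 16.9% of those of Ranbp1 with Gm49776. Gm28539, Gm20518 and Gm49776 are not among the genes of the count table, and whether the counting annotation held them is not known. For Dgcr8 the share on the same strand was 6.42%, and for Tango2, Zdhhc8, Arvcf, Txnrd2 and Trmt2a it was 0. Trmt2a shares 16.5% of its exonic bases with Dgcr8 and Ranbp1 on the opposite strand. Only 1 of the 9, Dgcr8, had a transcript elsewhere in the annotation that matched it at 95% identity or more over a stretch of 200 bases or longer. The counts of Hira, Dgcr2, Ranbp1, Dgcr8, Trmt2a, Txnrd2 and Arvcf are uncertain on this ground, to an extent that is not known. Tango2 and Zdhhc8, which share no exonic base with another gene, had 13 and 223 and 0 and 4 counts. The part of shared exons in the values was not tested. Mir185, a microRNA gene within Tango2, and Mir1306, within Dgcr8, were listed at 0 in both libraries, which were made from total RNA and not from small RNA.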

How the data were processed

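RNA from 1 control and 1 MALAT1-knockdown culture of C3H10 cells was sequenced after rRNA removal with a directional kit. The authors deposited whole-number read counts per gene symbol, without normalization. The submitters' processing notes name HISAT2 and GRCm38. The counting tool, its annotation, its strand setting and its handling of reads that match several places are not given in the sources used here. Columns were assigned to libraries by title.

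Counts were scaled by TMM factors (edgeR 4.0.16, R 4.3.3), 0.992 for the control and 1.01 for the knockdown library. Log2 fold changes used a prior count of 0.5, and genes with at least 10 summed counts were compared. With 1 library per group, no model could estimate the spread between cultures, so no test was run. Intervals for folds are Clopper-Pearson limits and those for counts are exact Poisson limits (scipy 1.17.1). The limits for folds were checked on simulated counts with counting error only, which cannot show how they hold with spread between cultures. Reads carry no molecular identifiers, so intervals and the floor of 3 counts cover counting error only.

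Of the genes compared, 96.0% matched RefSeq (GRCm38.p6), by symbol or a single synonym, and 90.2% had a GENCODE M21 transcript length. Neighbours were all table genes from 10 before to 10 after the group. The view of coding genes with 20 on each side, and the bounds of 250, 30 and 1000 counts, were chosen after the data were examined. Genes named outside the group are neighbours or listed partners past a log2 fold change of 1, the highest and the lowest partner of each list with a mean of at least 100 counts, and the 3 genes nearest in fold to Tango2 and Dgcr2. Other partners and neighbours were named after their values were seen, for their known tie to a member or their place on the chromosome. The members and lists were chosen with earlier results of these data known. Alternatives were library totals, DESeq2 size factors (DESeq2 1.42.0), upper-quartile factors, prior counts of 2 and 0.125, a 1.5-fold threshold, and filters of at least 1 summed count or 10 counts in each library. A gene of the region is not reported here by name or drawn, though it counts in the totals. The sum of members without Txnrd2 was also added after the data were examined.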

Additional observations from a re-analysis of the deposited data

How the results depend on the processing

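Scaling by library totals, DESeq2 size factors or upper-quartile factors moved the median of all genes from 0.00 to at most 0.02 and left the counts of genes past the threshold within 1.5 times for the 9 genes, their neighbours and the partner lists. No single gene of the group changed direction, and each stayed within its counting interval: Tango2 ran from 3.81 to 3.98, Dgcr2 from 2.75 to 2.80 and Arvcf from 2.25 to 2.99. With a prior count of 2 the median of the group was 0.51. With a 1.5-fold threshold, 4 genes of the group (with Ranbp1) were counted as higher and 1 (Txnrd2) as lower, 1 neighbour as higher and 5 as lower, and past it were 1 thioredoxin gene (lower), 3 histone chaperones (higher) and 1 gene with LDL receptor repeats (higher), while the counts over all genes were 1438 higher and 2061 lower, against 678 and 1045. With at least 1 summed count, 4 genes of the group (with Zdhhc8) were higher, 1 (Trmt2a) and 3 DHHC genes were lower, and 1 neighbour and 1 armadillo gene higher, and over all genes 2787 were higher and 3139 lower. With at least 10 counts in each library Arvcf and Ranbp1 dropped out, 2 genes of the group were higher, the group's median was 0.54, 0 DHHC genes were higher, and over all genes 182 were higher and 422 lower. No paired analysis was possible because each group has 1 library. Low counts limit the group: 6 of its 9 genes had a mean under 30 counts.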
